A study of Mus musculus with 6 samples.

Results

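The genes described here were 36 markers of cortical layers and of excitatory neurons, chosen by symbol, though with earlier results of these data known. Of these, 35 were listed among the 14824 genes of the deposited table and all 35 were tested among 13747 genes. The symbol Nr4a2b was not listed, and the gene Nr4a2 is given separately below. Primary somatosensory (S1) cortex was taken from wild-type C57B6 mice at postnatal day 21, and bulk RNA-seq was performed on 3 libraries after whisker stimulation (WS) and 3 libraries without it (NS, named NW control in the labels). The right whiskers of male mice were brushed by hand every day, and tissue was collected 90 minutes after the last stimulation. The labels name neurons, astrocytes, endothelial cells, oligodendrocytes, pericytes and microglia as the cells in the samples, so each value is a mixture of cell types and of layers. In such samples fewer cells of a type and less RNA per cell cannot be told apart. The study's scheme of the stimulation takes the unstimulated side of the barrel cortex as NS, so WS and NS samples may come from the same mice. The labels do not say which samples share an animal, so the p-values measure only the spread between these libraries.

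The neocortex is built of stacked layers of excitatory neurons that differ in their targets and in the transcription factors they keep expressing. In the barrel field of S1, layer 4 neurons receive the whisker signal from the thalamus and pass it to layers 2/3, layer 5 sends the main output to subcortical targets, and layer 6 projects back to the thalamus. The question here was whether markers of any layer differed between WS and NS.

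The total counts over the listed genes were between 15660395 and 17276168 per library, and the lowest count of any of the 35 genes in any library was 71. Levels are given as CPM, which are counts relative to library sizes normalized by TMM. Slc17a7, the vesicular glutamate transporter of cortical excitatory neurons, was between 1912 and 2545 CPM. Its level alone does not place the tissue. Markers of neighbouring tissue were present too. The summed level of 12 striatal genes was 646, 805 and 767 CPM in NS replicates 1, 2 and 3, and 648, 1143 and 613 CPM in WS replicates 1, 2 and 3. The summed level of 8 oligodendrocyte genes was 8032, 11580.1 and 10932 CPM in NS and 9537, 12632 and 12814 CPM in WS in the same order, lowest in replicate 1 of both groups. The widest distance between any pair of libraries was that of WS replicate 1 from WS replicate 3, with a chi-square of 21.47 per degree of freedom over 13733 genes.

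None of the layer or excitatory neuron genes passed the test between WS and NS. With edgeR's quasi-likelihood test and Benjamini-Hochberg adjustment over all 13747 genes, 0 of the 35 had an adjusted p under 0.05, against 0.0364% of all genes tested, and every one had an adjusted p of 0.9998. At an unadjusted p under 0.05 the count was also 0 of 35, against 1.19% of all genes, with 0 higher in WS (0.866% of all genes) and 0 lower (0.327%). The study's thresholds add an absolute log2 fold change above 1. Applied to edgeR's adjusted p here, they took 0 of 35 and 0.0291% of all genes. The study applied them with DESeq2 and PossionDis and reported far more genes, so the share given here is not the study's own. At an unadjusted p under 0.05, DESeq2 gave 0 of 35 against 0.611% of all genes and edgeR with the replicate number as a block gave 0 of 35 against 1.77%. Both gave 0 of 35 after adjustment. The log2 fold changes lay between -0.21 (Otof) and 0.22 (Foxp2), with 17 of the 35 above 0 and 18 below, against 53.0% of all genes above 0. Their median was -0.009, beside 0.007 over all genes tested. The median of the absolute log2 fold changes was 0.117, beside 0.069 over all genes.

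The 95% interval of the log2 fold change lay within -0.5 to 0.5, or 1.41-fold either way, for 30 of the 35 genes. The intervals that went beyond it were those of Otof, Crym, Foxp2, Sulf1 and Nxph4. The lowest bound was a fold of 0.626 for Sulf1 and the highest a fold of 1.65 for Foxp2, so the interval of 0 of the 35 genes reached a change of 1 on the log2 scale. The groups did not overlap in 6 of 35 genes, or 17.1%, against 6.27% of all genes tested. These were Cux1, Pou3f3 and Rorb with WS above NS (3.11% of all genes), and Rasgrf2, Mef2c and Fezf2 with WS below NS (3.16%). For a single gene with 3 libraries against 3, an exact two-sided permutation test cannot go below p = 0.10.

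**Figure D1:**
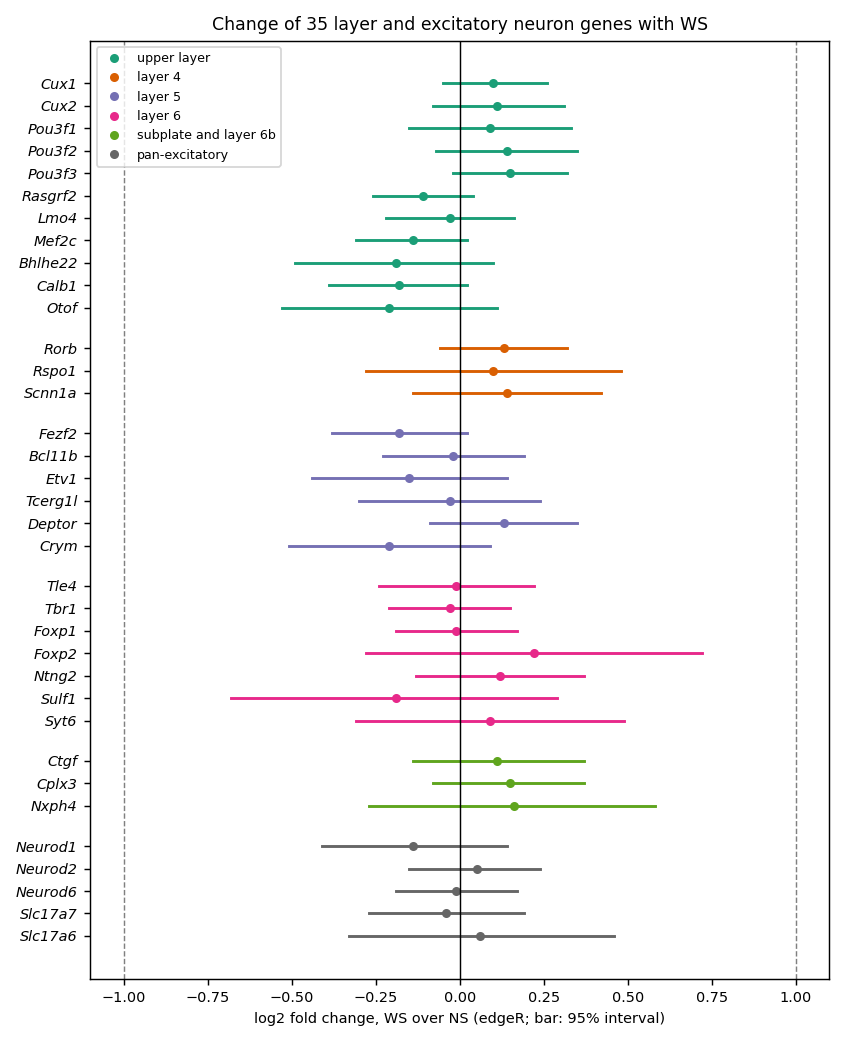
Log2 fold change of WS over NS for the 35 genes on the horizontal axis, with the 95% interval of edgeR's fit as bars, coloured by layer. Every interval includes 0, and all lie inside the dashed lines at -1 and 1.

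The 3 layer 4 genes all had positive log2 fold changes that did not pass the test. Rorb, which encodes a nuclear receptor needed for the clustering of layer 4 neurons into barrels, had 49.4, 43.6 and 49.4 CPM in NS and 50.7, 50.6 and 54.4 CPM in WS. Its WS libraries were all above its NS libraries, the nearest of them by little more than 1 CPM. Its mean was 47.4 ± 3.35 CPM in NS and 51.9 ± 2.19 CPM in WS (SD, n = 3 each), or 0.13 as log2 fold change (standard error, SE, 0.09, with a 95% interval of -0.06 to 0.32). The p of edgeR's quasi-likelihood test was 0.168 before adjustment. Without NS replicate 2 the log2 fold change was 0.072. Rorb lies on chromosome 19 from 18930605 to 19111196 on the minus strand.

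Scnn1a, a sodium channel subunit gene whose promoter marks layer 4 cells in mouse lines, had 10.0, 10.5 and 10.4 CPM in NS and 12.7, 9.71 and 11.7 CPM in WS. WS replicate 2 was the lowest of all 6 libraries, so the groups overlapped. The log2 fold change was 0.14 (SE 0.13, 95% interval -0.14 to 0.42). It was 0.057 without WS replicate 1 and 0.236 without WS replicate 2. Rspo1, which encodes a secreted enhancer of Wnt signalling, had 11.1, 12.7 and 10.3 CPM in NS and 15.0, 12.4 and 8.97 CPM in WS. WS replicates 1 and 3 were the highest and the lowest of the 6 libraries. WS over NS was 0.10 on the log2 scale (SE 0.17, 95% interval -0.28 to 0.48), and -0.08 without WS replicate 1. The median log2 fold change of the 3 layer 4 genes was 0.13, and 0.057 without WS replicate 1.

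**Figure D2:**
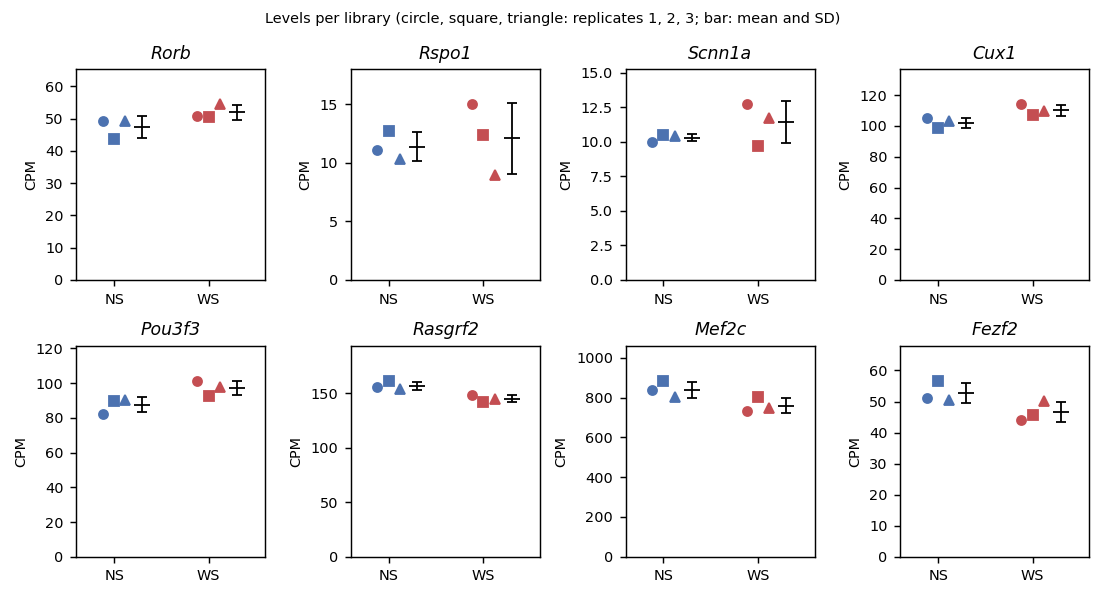
Level in each library (CPM, vertical axes from 0) of the 3 layer 4 genes and of the other genes whose groups did not overlap, with circles, squares and triangles for replicates 1, 2 and 3 and bars for the mean and SD of 3 libraries. The distance between WS and NS is small beside the level in every panel, and the groups overlap in Rspo1 and Scnn1a.

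The 11 upper-layer genes were split in direction, with 5 above 0 and 6 below and a median log2 fold change of -0.032. The median was -0.092 without WS replicate 1 and 0.045 without WS replicate 3. Both Cux genes, homeobox factors that specify the dendrites and synapses of layer 2 to 4 neurons, had values slightly above 0. Cux1 (chromosome 5, 136248135 to 136567490) had 105, 98.8 and 103 CPM in NS and 114, 107 and 109.8 CPM in WS. The groups were apart, with means of 102 ± 3.29 and 110.1 ± 3.56 CPM (SD, n = 3 each), and the log2 fold change was 0.10 (SE 0.07, 95% interval -0.05 to 0.26). Cux1 shares exonic sequence with Gm16599 on the other strand. Cux2 had 166, 182 and 166 CPM in NS and 208, 177 and 169.6 CPM in WS. WS replicate 1 alone stood above the NS range, and the log2 fold change was 0.11 (SE 0.09), or 0.018 without that library.

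The 3 Pou3f genes encode POU-domain factors of upper-layer and some layer 5 neurons. All of them had positive log2 fold changes, of 0.09 for Pou3f1, 0.14 for Pou3f2 and 0.15 for Pou3f3. Pou3f3 (chromosome 1, 42695768 to 42703176) had 82.4, 89.8 and 90.5 CPM in NS and 101, 92.6 and 97.8 CPM in WS. Its groups did not overlap, with means of 87.6 ± 4.49 and 97.0 ± 4.03 CPM (SD, n = 3 each), and its unadjusted p was 0.0811 (edgeR's quasi-likelihood test). NS replicate 1 was the lowest library for each of the 3 genes. In Pou3f1 it had 43.9 CPM, against 54.7 to 59.7 CPM in the other 5 libraries, and the value of 0.09 turned to -0.033 without it.

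Since these genes are close in sequence, reads could be assigned to the wrong one if short. The longest identical run in the coding sequences was 38 bases between Pou3f1 and Pou3f2, 29 between Pou3f1 and Pou3f3 and 23 between Pou3f2 and Pou3f3, and no window of 50 bases was shared. The read length is not given in the sources used here. The stretch that holds the longest run is shown from the GENCODE M21 transcripts (GRCm38), as 90 bases aligned without gaps, with the bases that differ from Pou3f1 in capitals. Pou3f2 differed at 9 of the 90 and Pou3f3 at 6. In the other families of the list the longest run was 35 bases for Foxp1 and Foxp2, 25 for Neurod1 and Neurod2, 23 for Cux1 and Cux2 and 21 for Slc17a6 and Slc17a7.
Pou3f1: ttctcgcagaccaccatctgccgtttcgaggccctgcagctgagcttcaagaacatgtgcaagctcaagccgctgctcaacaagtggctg
Pou3f2: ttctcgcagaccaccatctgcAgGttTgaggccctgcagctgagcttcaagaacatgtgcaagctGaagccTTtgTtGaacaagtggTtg
Pou3f3: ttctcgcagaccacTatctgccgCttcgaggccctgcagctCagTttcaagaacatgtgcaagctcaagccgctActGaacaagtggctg

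The remaining upper-layer genes had log2 fold changes below 0. Mef2c, an activity-regulated transcription factor of excitatory neurons and microglia (chromosome 13, 83504034 to 83667080), had 836, 882 and 803 CPM in NS and 734, 801 and 746 CPM in WS. Its highest WS library lay just below its lowest NS library. The means were 840.3 ± 40.0 and 760.3 ± 35.5 CPM (SD, n = 3 each), or -0.14 as log2 fold change (SE 0.08, 95% interval -0.31 to 0.02) with an unadjusted p of 0.0869 (edgeR's quasi-likelihood test). Rasgrf2, a Ras exchange factor (chromosome 13, 91880400 to 92131656), had 156, 161 and 154 CPM in NS and 148, 142 and 145 CPM in WS. It was the steadiest of the 35 genes within groups, with an SD of 0.0316 on the log2 scale, and its groups were apart, with a log2 fold change of -0.11 (SE 0.07, unadjusted p = 0.133 from the same edgeR test).

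Otof, Calb1 and Bhlhe22 varied more within groups. Otof, which encodes the calcium sensor otoferlin, had 21.2, 16.9 and 16.3 CPM in NS and 17.4, 16.9 and 12.5 CPM in WS. Calb1, the calcium buffer calbindin, had 185, 154 and 174 CPM in NS and 161, 156 and 135 CPM in WS. Bhlhe22, a basic helix-loop-helix factor that shapes area identity in upper layers, had 76.2, 58.1 and 57.3 CPM in NS and 66.0, 53.3 and 48.5 CPM in WS. In all 3 genes NS replicate 1 was the highest and WS replicate 3 the lowest library. Their log2 fold changes of -0.21, -0.18 and -0.19 had unadjusted p-values of 0.172, 0.071 and 0.181 (edgeR's quasi-likelihood test). Leaving out 1 library in turn, Otof ran from -0.077 (without WS replicate 3) to -0.298 (without WS replicate 1), Calb1 from -0.110 (without WS replicate 3) to -0.253 (without NS replicate 2) and Bhlhe22 from -0.045 (without NS replicate 1) to -0.328 (without WS replicate 1). Lmo4, a LIM-domain transcriptional adaptor, was at 265 to 278 CPM in NS and 231 to 285 CPM in WS, with a log2 fold change of -0.03.

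Of the 6 layer 5 genes, 5 had log2 fold changes below 0, and the median was -0.091, or 0.004 without WS replicate 1. Fezf2, the factor that specifies subcortically projecting layer 5 neurons (chromosome 14, 12342094 to 12348189), had 51.1, 56.5 and 50.6 CPM in NS and 44.0, 45.5 and 50.1 CPM in WS. The groups did not overlap, though WS replicate 3 came within 1 CPM of the lowest NS library. The means were 52.7 ± 3.25 and 46.5 ± 3.20 CPM (SD, n = 3 each). WS over NS was -0.18 on the log2 scale (SE 0.09, 95% interval -0.38 to 0.02). The unadjusted p of 0.07 was the smallest among the 35 genes (edgeR's quasi-likelihood test), and it was 0.0283 without WS replicate 3 (log2 fold change -0.24, adjusted p = 0.8842).

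Bcl11b (CTIP2), a zinc-finger factor that acts downstream of Fezf2, had 58.8, 58.7 and 49.6 CPM in NS and 52.3, 59.5 and 52.9 CPM in WS. Its groups covered the same range, with a log2 fold change of -0.02 (95% interval -0.23 to 0.19). Etv1, an ETS factor of layer 5 neurons, had 90.6, 102 and 81.5 CPM in NS and 65.0, 85.4 and 96.4 CPM in WS. WS replicate 1 was far below the other 5 libraries, and the log2 fold change of -0.15 (SE 0.13) was -0.005 without it. Crym, which encodes the thyroid hormone-binding protein mu-crystallin, had 61.3, 51.2 and 50.6 CPM in NS and 49.4, 55.1 and 36.6 CPM in WS. WS replicate 3 was low here, and the log2 fold change of -0.21 (SE 0.14) was -0.058 without it. Tcerg1l was between 10.3 and 12.4 CPM in all libraries. Deptor, an inhibitor of mTOR kinase, was at 27.6 to 31.9 CPM in NS and 29.3 to 34.6 CPM in WS and was the only layer 5 gene with a positive log2 fold change (0.13, standard error 0.10).

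Of the 7 layer 6 genes 3 lay above 0 and 4 below, around a median of -0.010 on the log2 scale. Foxp2, a forkhead factor of layer 6 neurons that is also made in striatum, had 10.5, 14.4 and 12.8 CPM in NS and 8.71, 18.1 and 17.2 CPM in WS. Syt6, which encodes a synaptotagmin, had 19.8, 26.7 and 29.4 CPM in NS and 19.4, 28.7 and 32.8 CPM in WS. Sulf1, a sulfatase that trims heparan sulfate chains, had 16.1, 17.9 and 22.4 CPM in NS and 10.4, 22.3 and 16.7 CPM in WS. In each of the 3 genes replicate 1 was the lowest library of both groups. This order held for 5 of the 7 layer 6 genes (Tle4, Foxp1, Foxp2, Sulf1 and Syt6) and for 6 of all 35, where it held for 14.8% of all genes tested. The order was noticed after the values were seen and was not tested.

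The log2 fold changes of the layer 6 genes depended on which libraries were kept. That of Foxp2 was 0.22 (SE 0.23, 95% interval -0.28 to 0.72) with all libraries and 0.49 without WS replicate 1 (unadjusted p = 0.00379, and 1.0 after adjustment, edgeR's quasi-likelihood test). Sulf1 was at -0.19 (SE 0.22), and its value turned to 0.057 without WS replicate 1 and to -0.48 without WS replicate 2. Tbr1, the T-box factor of corticothalamic neurons, had 184, 215 and 192 CPM in NS and 204, 190.5 and 182 CPM in WS, with a log2 fold change of -0.03 (95% interval -0.21 to 0.15). Tle4, a Groucho-family co-repressor, had 58.1, 67.2 and 60.0 CPM in NS and 54.1, 59.8 and 70.2 CPM in WS and a log2 fold change of -0.01. Foxp1 was between 108 and 127 CPM in all libraries. Ntng2, a membrane-anchored netrin, was at 23.5 to 29.5 CPM in NS and 26.1 to 31.6 CPM in WS.

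**Figure D3:**
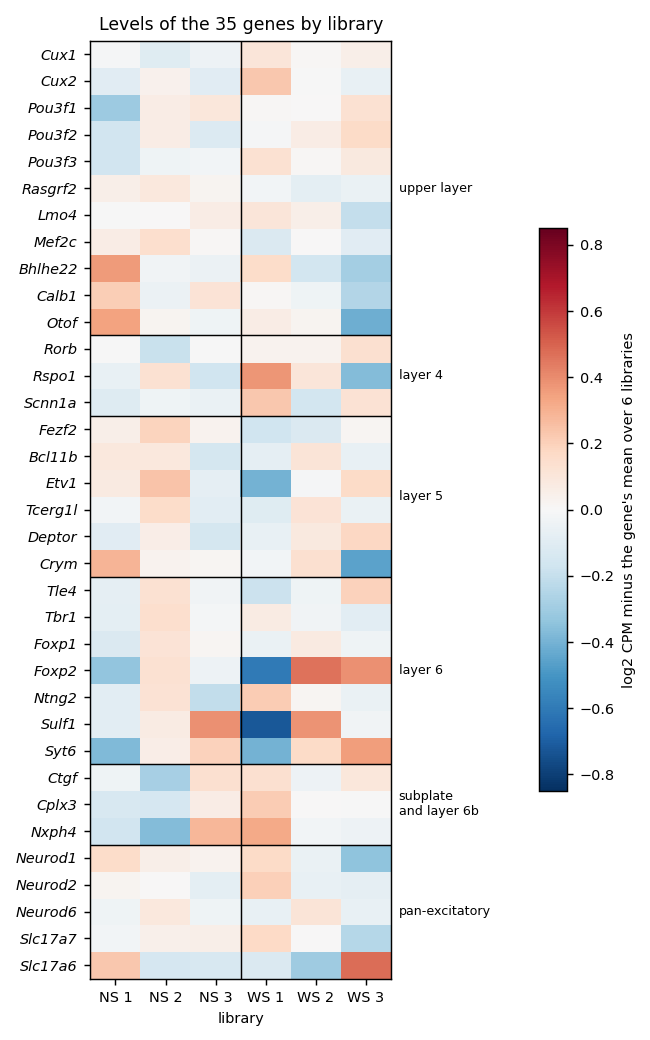
Level of each of the 35 genes (rows) in each library (columns) as log2 CPM minus the gene's mean over the 6 libraries. WS replicate 1 and WS replicate 3 hold the highest level of 19 genes and the lowest level of 18, and the layer 6 genes Foxp2 and Syt6 are low in replicate 1 of both groups.

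The mean level of the 7 genes, taken as log2 CPM minus each gene's own mean over the 6 libraries, was -0.166, 0.110 and 0.043 in NS and -0.238, 0.148 and 0.103 in WS. NS replicate 1 and WS replicate 1, the lowest in layer 6 genes, were also the lowest in the sum of 8 oligodendrocyte genes, at 8032 and 9537 CPM against 10932 to 12814 CPM in the other 4 libraries. Replicate 1 was the lowest library of both groups in 7 of the 8 genes, with Mag as the exception. The myelin basic protein gene Mbp, named here after its values were seen, had 3742 and 4732 CPM in these libraries and 5415 to 6069 CPM in the others. The same 2 libraries were the lowest in the sums of 5 choroid plexus genes (33.3 and 10.2 CPM against 48.9 to 93.5), of 6 hippocampal genes (139.6 and 123 CPM against 156 to 195) and of 14 immediate early genes (1021 and 1254 CPM against 1326 to 1997). The part of any of these in the layer 6 values was not tested. All 12 striatal genes were highest in WS replicate 2, where Foxp2 and Bcl11b, which striatal neurons also express, had their highest level. Foxp2 was almost as high in WS replicate 3 (17.2 against 18.1 CPM), where the striatal sum was lowest at 613 CPM. Bcl11b had 58.8 CPM in NS replicate 1, where that sum was 646 CPM, against 59.5 CPM in WS replicate 2. Foxp1, which striatal neurons express too, was highest in NS replicate 2 at 127 CPM, with 123 CPM in WS replicate 2. In WS replicate 2 the dopamine receptor gene Drd2, which defines a class of striatal neurons, had 17.5 CPM against 1.95 to 6.40 CPM elsewhere. The part of striatal tissue in the Foxp2 and Bcl11b values was not tested.

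The subplate and layer 6b genes, which mark the deepest neurons of the cortex, had 3 of 3 log2 fold changes above 0 and a median of 0.145. Ctgf, a secreted matrix protein gene now named Ccn2, had 29.5, 25 and 33.3 CPM in NS and 33.2, 29.4 and 32.3 CPM in WS. Cplx3, a complexin of subplate neurons, had 27.7, 27.5 and 31.7 CPM in NS and 35.3, 30.5 and 30.4 CPM in WS. Nxph4, a neurexophilin, was the lowest in counts, with 81, 71 and 112 in NS and 121, 91 and 88 in WS. NS replicate 2 was the lowest library in all 3 genes, and the groups overlapped in each. The intervals of their log2 fold changes reached from -0.14 to 0.37 for Ctgf, from -0.08 to 0.37 for Cplx3 and from -0.27 to 0.58 for Nxph4. The median of the 3 was 0.021 without NS replicate 2. Nr4a2, a nuclear receptor of layer 6b cells that also answers to activity, had 63.4, 44.6 and 39.6 CPM in NS and 57.8, 50.7 and 38.9 CPM in WS, so that replicate 1 was the highest and replicate 3 the lowest library in both groups.

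The 5 genes common to excitatory neurons had 2 log2 fold changes above 0 and 3 below, around a median of -0.009. Slc17a7 had 2232, 2328 and 2347 CPM in NS and 2545, 2266 and 1912 CPM in WS. WS replicates 1 and 3 lay above and below the whole NS range, and the log2 fold change was -0.04 (SE 0.10, 95% interval -0.27 to 0.19). Neurod6, the basic helix-loop-helix gene whose Cre line marks pyramidal neurons, had 77.7, 84.9 and 77.6 CPM in NS and 76.3, 86.1 and 76.4 CPM in WS, with replicate 2 highest in both groups and a log2 fold change of -0.01 (95% interval -0.19 to 0.17). Neurod2, a factor for the maturation of excitatory neurons, had 117, 116 and 109 CPM in NS and 133, 111 and 109 CPM in WS. Neurod1 was at 21.1 to 23 CPM in NS and 16.4 to 23.2 CPM in WS, with a log2 fold change of -0.14 (SE 0.13). This was -0.018 without WS replicate 3 and -0.267 without WS replicate 1.

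Slc17a6, the vesicular glutamate transporter of thalamic neurons, had 34.3, 26.5 and 26.6 CPM in NS and 26.9, 23.7 and 40.7 CPM in WS. WS replicate 3 was the highest and NS replicate 1 the next, and the log2 fold change of 0.06 (SE 0.18) turned to -0.203 without WS replicate 3. Of 7 thalamic genes, 5 were highest in WS replicate 3, among them the transcription factor genes Tcf7l2, at 14.0 CPM against 6.34 to 8.20 CPM elsewhere, and Lhx9, with 33 counts against 3 to 11 elsewhere. The other 2, Prkcd and Ramp3, were at their lowest there, at 7.96 and 19.5 CPM, and were highest in WS replicate 2, at 13.9 and 28.5 CPM. The summed level of the 7 genes was 182, 169 and 159.5 CPM in NS and 164, 177 and 201 CPM in WS. The part of thalamic tissue in the Slc17a6 values was not tested.

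Compared per length of exon, the genes covered a wide range of levels. Slc17a7 was the highest at 427 ± 11.4 CPM per kb in NS (SD, n = 3), followed by Lmo4 at 76.4 and Mef2c at 53.5 CPM per kb. Neurod6, Neurod2, Tbr1 and Calb1 came next, between 35.3 and 37.3 CPM per kb, and did not differ beyond their spread. The layer 4 genes were low on this scale, with 5.86 for Rspo1, 4.28 for Rorb and 2.50 for Scnn1a. Foxp2 was the lowest at 0.768 CPM per kb. These lengths are all annotated exons of a gene joined together, so a gene with many rare exons is set low.

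**Figure D4:**
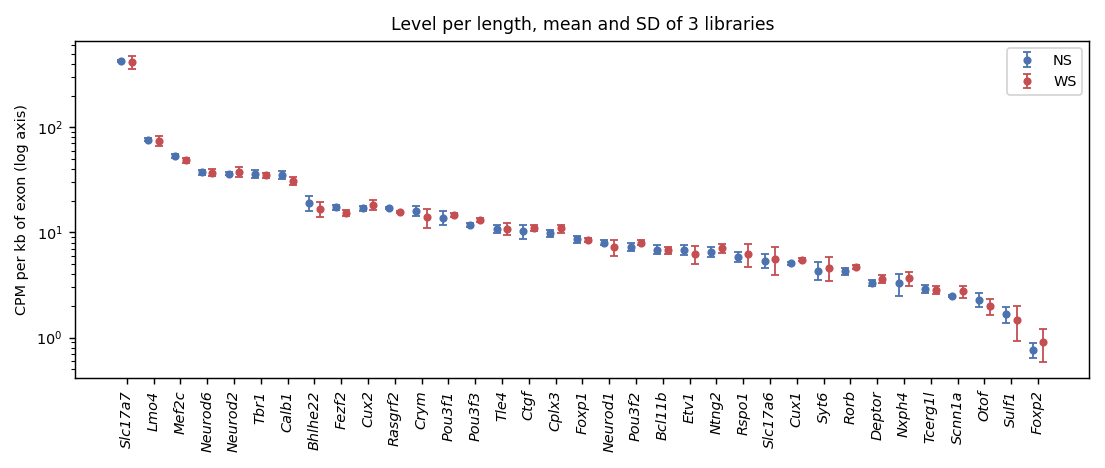
Level per kb of annotated exon (log axis) of the 35 genes in NS and WS, as mean and SD of 3 libraries, in the order of the NS mean. The NS and WS points lie close together for every gene, from Slc17a7 at 427 down to Foxp2 at 0.768 CPM per kb in NS.

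The layers were also set against each other within a library. The mean level of the upper-layer genes minus that of the layer 6 genes was 0.192, -0.092 and -0.048 in NS and 0.296, -0.159 and -0.189 in WS on the log2 scale, positive in replicate 1 and negative in replicates 2 and 3 of both groups. The mean of the layer 4 genes was -0.059, -0.031 and -0.078 in NS and 0.213, -0.008 and -0.038 in WS. WS replicate 3 lay within the NS range and WS replicate 1 farthest above it. For layer 4 minus layer 5 the values were -0.123, -0.159 and -0.008 in NS and 0.353, -0.060 and -0.003 in WS. Averaged over libraries, WS minus NS was 0.112 for layer 4, -0.026 for the upper layers, -0.082 for layer 5, 0.009 for layer 6, 0.145 for the subplate genes and -0.027 for the common genes. These differences were not tested.

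**Figure D5:**
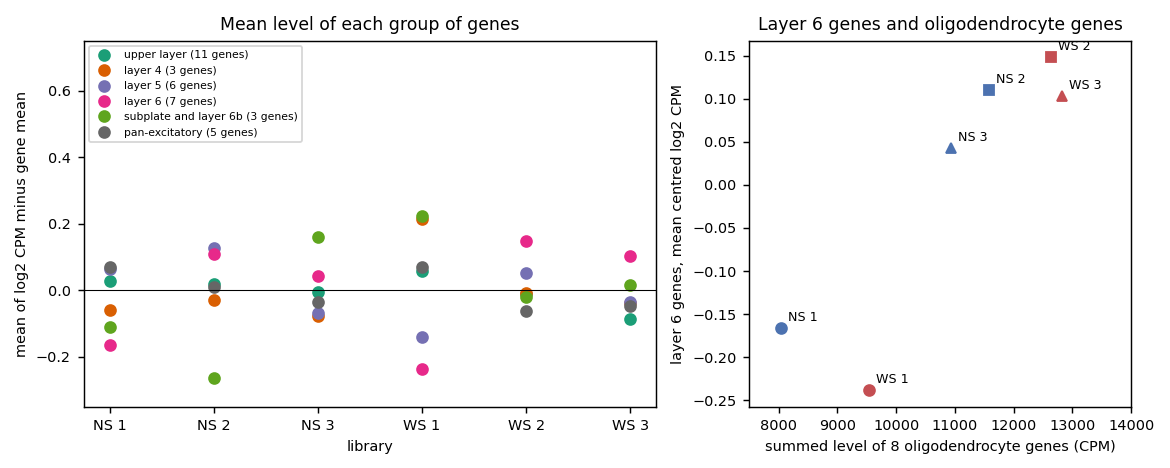
Left, mean over the genes of each group of log2 CPM minus the gene's own mean, by library. Right, the same mean for the 7 layer 6 genes against the summed level of 8 oligodendrocyte genes (CPM), where replicate 1 of NS and of WS are the lowest on both axes.

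The WS value was on the same side of the NS value in all 3 same-numbered pairs for 8 of 35 genes, or 22.9%, against 18.4% of all genes tested. It was higher in every pair for Cux1, Pou3f3, Rorb and Deptor (9.82% of all genes) and lower for Rasgrf2, Mef2c, Bhlhe22 and Fezf2 (8.57%). The same replicate number was the lowest library of both groups in 18 of 35 genes, against 34.7% of all genes, and the highest in 14 of 35, against 32.0%. The SD within groups ran from 0.0316 for Rasgrf2 to 0.449 for Foxp2 on the log2 scale and was above the counting error in all 35 genes.

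A further list of 25 genes of excitatory neurons and layers, which holds none of the 35, had a median log2 fold change of -0.026. Of the 25, 7 were above 0 and 18 below, where 53.0% of all genes were above 0. By edgeR's quasi-likelihood test 0 had an adjusted p under 0.05 and 1 an unadjusted p under 0.05, against 1.19% of all genes. That gene was Rprm, a cell cycle inhibitor gene used as a layer 6 marker, with 59.8, 58.0 and 57.9 CPM in NS and 49.5, 53.2 and 51.3 CPM in WS. Its groups were apart, with means of 58.6 ± 1.09 and 51.4 ± 1.83 CPM (SD, n = 3 each), and the difference of -0.19 on the log2 scale (SE 0.08) gave an unadjusted p of 0.0343 and an adjusted p of 0.9998 from the same test. The others included Camk2a, the kinase of excitatory synapses, at -0.01 and Nrgn, a postsynaptic calmodulin-binding protein gene, at 0.01.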

How the data were processed

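Per the study's methods, the authors filtered out ribosomal and poor reads and used HISAT2 for alignment. The submitters' processing notes name mm10, and the counting tool is not given in the sources used here. Per gene, the authors deposited an estimated count averaged across the 6 libraries, and its SD. The authors also deposited a score (z) for each library, its count minus that average divided by the SD. Deposited fold changes, p-values and a second table of the authors' comparison were not used. Counts were recovered as average plus z-score times SD and rounded. In the 13418 genes whose rounding left under 0.1 count of uncertainty, 90.97% of values were within 0.1 of a whole number. The column of WS replicate 3 is spelled 3NWS and was taken as WS because the authors' WS average includes it. No library pair was alike within sampling noise (lowest chi-square 4.49 per degree of freedom).

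WS was compared with NS by edgeR 4.0.16 (TMM, filterByExpr, quasi-likelihood test, Benjamini-Hochberg over 13747 genes) in R 4.3.3, and the scripts were tested on simulated data. Alternatives were DESeq2 1.42.0, RLE and upper quartile normalization, no filter, the replicate number as a block and each library left out. The pairing was checked by correlating deviations from the group mean between libraries of one number, over 13747 genes that are no independent replicates. Pearson's r was 0.342, 0.228 and 0.124 for numbers 1, 2 and 3, taken from the sample titles. The main fit did not pair the samples. Only the block and the comparison of same-numbered libraries treated the numbers as pairs. Positions, exon lengths and sequences came from GENCODE M21 on GRCm38, in which 8 of the 35 genes share exonic bases with another gene. Whether counting used strand is not given in the sources used here.

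The genes and lists were chosen with earlier results of these data known. The rule for naming gave in full the genes with an unadjusted p under 0.05 in the main or the block test and the 3 layer 4 genes, named those whose groups did not overlap, gave the others by level, and named further excitatory genes with an unadjusted p under 0.05. Values of other genes, and of Mbp, Mag, Drd2, Tcf7l2, Lhx9, Prkcd and Ramp3 from the marker lists, were added after they were seen.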

Additional observations from a re-analysis of the deposited data

How the results depend on the processing

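Across the alternatives, 0 of the 35 genes had an adjusted p under 0.05 in any fit. Blocking on replicate number, the counts at an unadjusted p under 0.05 were also 0, the block changed no call, and the median log2 fold changes were -0.038 for the upper-layer genes and 0.132 for the layer 4 genes. Under the other normalizations, no filter on low counts, the block and DESeq2 these medians stayed between -0.038 and -0.029 and between 0.128 and 0.133. Leaving out 1 library in turn gave 0 to 1 genes higher and 0 to 3 genes lower at an unadjusted p under 0.05. Those were Foxp2, Bhlhe22, Calb1 and Neurod1 without WS replicate 1, Crym and Sulf1 without WS replicate 2, Etv1 and Fezf2 without WS replicate 3, and Calb1 without NS replicate 2. As shares these were 11.4%, 5.71%, 5.71% and 2.86% of the 35, against 3.09%, 1.48%, 4.41% and 1.52% of all genes tested in the same fits. The median log2 fold change then ranged from -0.092 to 0.045 for the upper-layer genes and from 0.057 to 0.158 for the layer 4 genes. It ranged from -0.154 to 0.004 for layer 5, from -0.058 to 0.057 for layer 6, from 0.021 to 0.217 for the subplate genes and from -0.055 to 0.019 for the common genes. The sign of the log2 fold change held in all 6 of these fits for 21 of the 35 genes and turned in 14. These were Pou3f1, Lmo4, Bcl11b, Tcerg1l, Tle4, Tbr1, Foxp1, Sulf1, Syt6, Neurod2, Neurod6, Slc17a7, Slc17a6 and Rspo1, the last at -0.08 without WS replicate 1 and 0.28 without WS replicate 3. The cause was not tested.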
